A study of Homo sapiens with 13 samples.

Results

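The 10 LIM homeodomain factors *ISL1*, *ISL2*, *LHX1*, *LHX2*, *LHX3*, *LHX4*, *LHX5*, *LHX9*, *LMX1A* and *LMX1B* were followed by RNA sequencing in 2 small cell lung cancer (SCLC) lines. They were taken by symbol, without regard to their values, from the 56831 genes listed for each library, and all 10 were present. The lines were H82, of the SCLC-N subtype, and H146, of the SCLC-A subtype, both labelled wild type. For each line there were 3 untreated libraries (no agent). FHD-286, an inhibitor of both ATPases of the SWI/SNF chromatin remodeller, SMARCA2 and SMARCA4, was given at 100 nM for 14 days with renewal of the drug, in 3 libraries of H82 and 4 of H146. Each line is a single established culture grown in serum-containing medium, and the labels do not say whether libraries of a group came from separate cultures. The *p* values therefore measure the spread between these libraries, which may be technical.

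LIM homeodomain proteins carry paired LIM zinc-binding domains and a DNA-binding homeodomain, and combinations of them specify neuron and endocrine cell types in the embryo. The LIM domains bind the adaptor LDB1, which joins the factors into larger complexes. The LIM-only proteins (LMO) have no homeodomain and compete for the same adaptor. The genes fall into pairs of close relatives, namely *ISL1* and *ISL2*, *LHX2* and *LHX9*, *LHX3* and *LHX4*, *LHX1* and *LHX5*, and *LMX1A* and *LMX1B*. Several are textbook markers of motor and sensory neurons, pituitary, pancreatic islets and retina.

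Values were TPM (a length-normalised share of transcripts), which divides reads by gene length and sets every library to the same sum, so that levels can be compared between genes. Read depth is unknown from such values, and the spread between libraries sets the precision. Between 15554 and 16633 genes were at 1 TPM or more in treated H82 libraries and between 21227 and 21772 in untreated ones, while in H146 the ranges were 18778 to 19309 and 17476 to 17965. Across all tested genes the treatment effect had a median log2 fold change of -0.56 for H82 and 0.25 for H146, and some fold changes below are given relative to these medians. *NEUROD1*, the factor after which the SCLC-N subtype is named, was at 224 to 234 TPM in untreated H82 and at 0.521 TPM or less in untreated H146. The summed level of 10 SCLC markers was 1258 to 1387 TPM in untreated H82, where *FOXA2* was listed at 0, and 4961 to 5478 TPM in untreated H146. With treatment it was 1325 to 1719 and 3413 to 3705 TPM. In H82 this sum hid opposite changes. The mean fell from 202 to 46.8 TPM for *SYP*, 143 to 32.6 for *CHGA*, 230 to 83.6 for *NEUROD1* and 173 to 80.8 for *ENO2*. It rose from 412 to 896 TPM for *UCHL1* and 14.4 to 121 for *INSM1* (296 in treated replicate 2). For *FOXA2* it rose from 0 to 13.1 TPM, with 35.7 in treated replicate 2 and 2.62 and 1.08 in treated replicates 1 and 3. *NCAM1*, *DLL3* and *EPCAM* overlapped between untreated and treated H82. In bulk RNA, fewer cells with a transcript and less of it per cell cannot be told apart.

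The promoters of 3 members are shown because these genes gave the contrasts described below: *ISL1* and *LHX2*, higher with treatment in both lines, and *LHX4*, with opposite changes in the lines. Each runs from 250 bases before to 50 after a RefSeq start site in GRCh38.p14, on the plus strand. Capitals mark an E-box (CANNTG, the motif of basic helix-loop-helix factors) or a CCAAT box (CCAAT, read on both strands), and no such matches overlapped in these windows.
ISL1, chr5:51383198-51383497: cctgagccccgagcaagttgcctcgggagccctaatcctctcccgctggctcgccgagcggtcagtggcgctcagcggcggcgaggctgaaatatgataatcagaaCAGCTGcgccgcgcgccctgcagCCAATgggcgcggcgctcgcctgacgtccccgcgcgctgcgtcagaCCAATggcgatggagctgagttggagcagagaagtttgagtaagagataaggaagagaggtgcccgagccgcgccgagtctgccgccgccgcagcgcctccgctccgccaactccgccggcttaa
LHX2, chr9:124011518-124011817: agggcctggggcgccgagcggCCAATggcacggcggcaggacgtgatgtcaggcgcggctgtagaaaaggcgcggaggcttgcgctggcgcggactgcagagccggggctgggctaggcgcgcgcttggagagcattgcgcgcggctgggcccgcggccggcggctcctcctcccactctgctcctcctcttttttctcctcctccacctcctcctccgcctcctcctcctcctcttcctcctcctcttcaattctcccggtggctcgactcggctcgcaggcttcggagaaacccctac
LHX4, chr1:180230014-180230313: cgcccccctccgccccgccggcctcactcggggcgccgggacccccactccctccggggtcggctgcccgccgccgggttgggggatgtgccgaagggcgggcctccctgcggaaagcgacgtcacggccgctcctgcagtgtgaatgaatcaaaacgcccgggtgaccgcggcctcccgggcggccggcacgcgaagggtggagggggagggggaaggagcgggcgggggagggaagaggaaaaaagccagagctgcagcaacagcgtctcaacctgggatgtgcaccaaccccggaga

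The *ISL1* window held 1 E-box, CAGCTG, 144 bases before the start, and 2 CCAAT boxes, 121 and 75 bases before it. The *LHX2* window held 1 CCAAT box and the *LHX4* window neither motif. Of 35116 RefSeq promoter windows of the same length, 68.7% held an E-box, 34.6% a CCAAT box and 4.84% the palindrome TAATTA, which contains the TAAT core bound by homeodomains. Matches are a description of letters and not of binding. Of the 10 members, 8 had an entry, with 12 windows among them, and no window held TAATTA. GC content was 66.7% for *ISL1*, 69.0% for *LHX2* and 72.7% for *LHX4*, against a median of 58.7% over all windows. In hg38 (GENCODE release 44) *ISL1* lies on chromosome 5 from 51383448 to 51394730, *LHX2* on chromosome 9 from 124001670 to 124033301, and *LHX4* on chromosome 1 from 180230264 to 180278984. The *LHX2* window is thus inside the annotated gene, at an internal start site. *ISL2* lies on chromosome 15 from 76336773 to 76342475, and *LHX3* on chromosome 9 from 136196250 to 136205128 on the minus strand.

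The untreated lines held different members of the family. In H82, *ISL2* led with a mean of 62.6 TPM, followed by *LHX4* (10.2 TPM) and *LHX3* (3.98 TPM), and each of these ranges was clear of the next. *LHX2* (1.59 TPM) and *LMX1A* (1.09 TPM) came next and overlapped. *ISL1*, *LHX9* and *LHX1* were below 1 TPM, and *LHX5* and *LMX1B* were listed at 0 in each untreated H82 library. In H146, *LHX2* (36.7 TPM) and *ISL1* (27.1 TPM) led and did not overlap, followed by *LHX3* (3.20 TPM). *LMX1B* (1.69 TPM), *LMX1A*, *LHX9*, *LHX5*, *LHX1* and *LHX4* followed with each neighbour overlapping the next, and *ISL2* was lowest at 0.0563 TPM.

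The untreated lines were compared with limma on log2(TPM + 1) in a fit of all 13 libraries, and adjusted *p* is by the Benjamini-Hochberg method. Of 9 members tested, 2 were higher and 4 lower in H82 than in H146, against 70.9% of all genes called in either direction. *ISL2* was higher in H82 by 5.91 on the log2 scale and *LHX4* by 3.19. *ISL1* (-4.42), *LHX2* (-3.87), *LMX1B* (-1.43) and *LHX9* (-0.53, adjusted *p* = 0.0365) were lower. The *LHX9* call was lost with no filter on low genes and without any 1 untreated H82 library or untreated H146 replicate 1 or 2, with adjusted *p* from 0.0593 to 0.133. *LHX3*, *LHX1* and *LMX1A* were not past the threshold in this fit. *LHX1* was called lower in H82 with a pseudocount of 0.1 (-2.04, adjusted *p* = 0.00232), under quantile normalization (-0.56, adjusted *p* = 0.0227) and without treated replicate 1 of H82 or of H146 (-0.43, adjusted *p* = 0.0477 and 0.0396). *LMX1A* was called lower under quantile normalization (-0.62, adjusted *p* = 0.00639). *LHX5* was below the filter.

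FHD-286 was then compared with no treatment within each line, over genes with at least 1 TPM in 3 libraries of the line. Called means a *p* of limma under 0.05 adjusted by Benjamini-Hochberg across every tested gene, and adjusted *p* refers to it unless a permutation test is named. In H82, 5 members were tested, of which *ISL1* and *LHX2* were higher, *LHX3* and *LHX4* were lower and *ISL2* was not called. Over all genes, 13.1% were called higher and 45.5% lower in H82. In H146, 7 members were tested, of which *ISL1*, *LHX1*, *LHX2*, *LHX4* and *LHX9* were higher, *LHX3* was lower and *LMX1B* was not called, with a background of 32.5% of all genes higher and 15.5% lower. The filter was passed only through the group with the higher level by *ISL1* (treated) and *LHX3* (untreated) in H82 and by *LHX1*, *LHX4* and *LHX9* (treated) in H146, so these had to differ in level, and the counts over tested members are no support for a direction of the family. With 1 library of the group that carried them left out, *ISL1* or *LHX3* no longer passed the filter in H82, so that 1 member was then called higher or 1 lower. Groups without overlap are common in these data. Of 19770 tested genes in H82, every treated library was above every untreated one for 3245 and below for 10160. In H146 this held for 6984 and 3385 of 19585 tested genes.

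**Figure D1:**
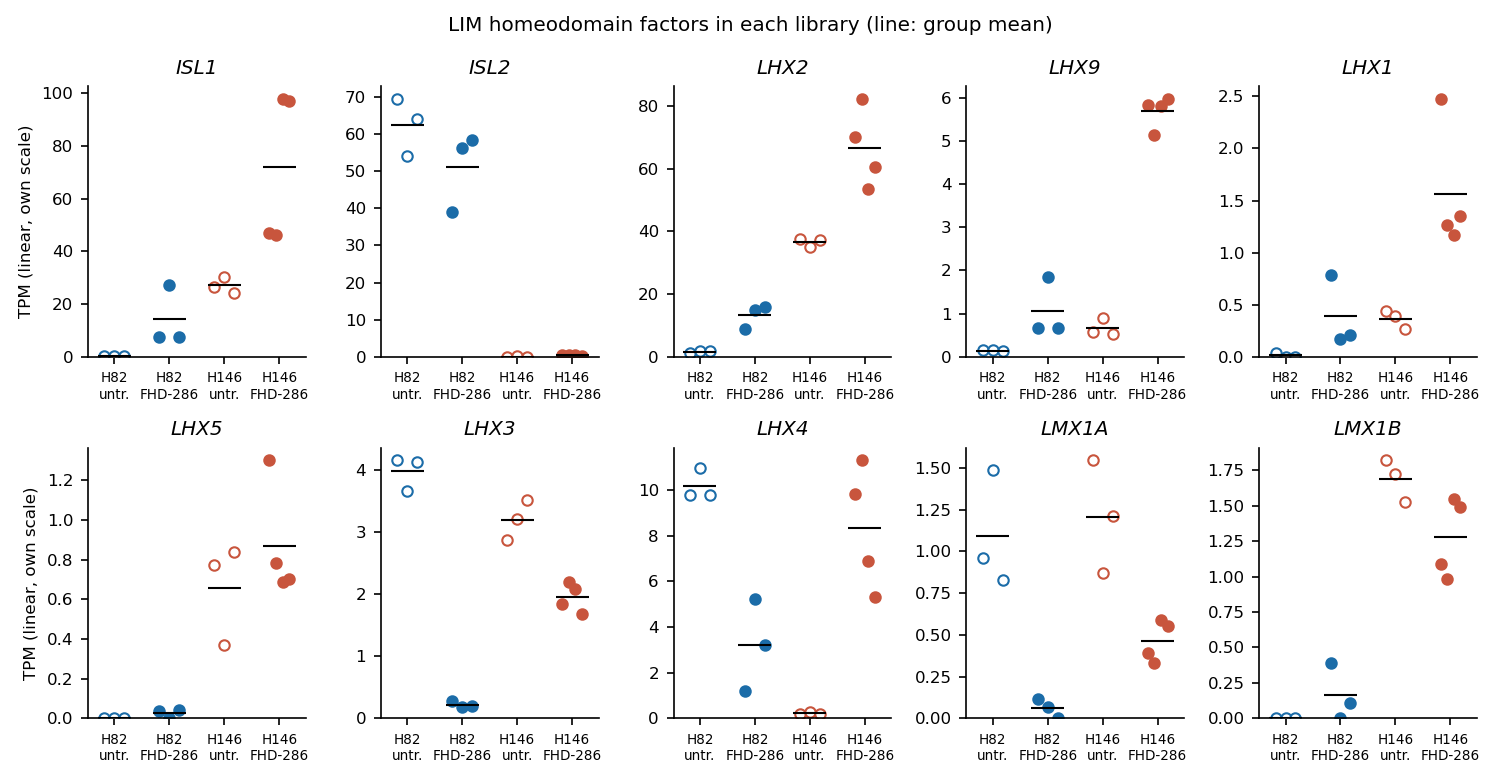
TPM of each LIM homeodomain factor (vertical axis, linear, with its own range per gene) in every untreated (open) and FHD-286-treated (filled) library of H82 (blue) and H146 (red), where black lines are group means. *LHX4* was lower in all 3 treated than in all 3 untreated H82 libraries and higher in all 4 treated than in all 3 untreated H146 libraries, and *ISL2* was at 39.1 TPM or more in each H82 library and 0.544 TPM or less in each H146 library.

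*ISL1*, which marks motor, sensory and sympathetic neurons and islet cells, rose in both lines. In untreated H82 it was at 0.266, 0.180 and 0.497 TPM, and in treated H82 at 7.59, 27.4 and 7.66 TPM. The groups did not overlap, and treated replicate 2 was far above the other treated libraries. The ratio of the means was 45.2, and the log2 fold change of TPM + 1, which understates changes of low genes, was 3.29 (SE, the standard error, 0.47, adjusted *p* = 0.00122) or 3.85 relative to the median of all genes. Without treated replicate 2, with the same genes tested, *ISL1* still rose, by 2.72 (adjusted *p* = 0.000848). H146 had 26.5, 30.4 and 24.3 TPM untreated and 46.8, 46.3, 97.8 and 96.9 TPM treated. All 4 treated libraries were above the untreated ones, with replicates 3 and 4 well above replicates 1 and 2. The mean rose 2.66-fold, and the log2 fold change was 1.29 (SE 0.30, adjusted *p* = 0.00803). The rise was larger in H82, with a difference between lines of 2.00 (adjusted *p* = 0.0109).

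*ISL2*, the relative of *ISL1* that is also expressed in motor and sensory neurons, was the most abundant member of H82 in both states. It was at 69.5, 54.1 and 64.2 TPM untreated and 39.1, 56.2 and 58.5 TPM treated. The groups overlapped. The log2 fold change was -0.30 with a 95% interval from -0.76 to 0.17 (adjusted *p* = 0.233), and its sign turned to 0.19 after scaling by the median of ratios between libraries (adjusted *p* = 0.389). In H146 *ISL2* was at 0, 0.130 and 0.0393 TPM untreated and at 0.544, 0.527, 0.483 and 0.315 TPM treated. These low ranges did not overlap, and the exact two-sided permutation test gave *p* = 0.0286, the smallest possible with 3 and 4 libraries (adjusted 0.114 over 8 such tests in both lines). The *ISL2* difference between lines (-0.77, adjusted *p* = 0.0166) was lost under the median of ratios (-0.23, adjusted *p* = 0.407) and without untreated H82 replicate 1 (-0.69, adjusted *p* = 0.051).

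*LHX2*, which acts in forebrain, eye and hair follicle development, rose in both lines as well. In H82 it was at 1.16, 1.76 and 1.85 TPM untreated and 9.0, 14.8 and 15.9 TPM treated. The lowest treated library was above the highest untreated one. The mean rose 8.32-fold, with a log2 fold change of 2.43 (SE 0.26, adjusted *p* = 0.000435), 2.99 relative to the median. H146 had 37.7, 35.01 and 37.3 TPM untreated and 70.0, 82.3, 53.6 and 60.4 TPM treated. These groups did not overlap either, and the mean rose 1.82-fold (log2 fold change 0.83, SE 0.16, adjusted *p* = 0.00324). The *LHX2* rise was larger in H82 by 1.61 (adjusted *p* = 0.000532). Even so, treated H82 stayed below untreated H146 in every library.

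*LHX9*, the close relative of *LHX2* with a role in gonad and limb formation, was at 0.564, 0.910 and 0.518 TPM in untreated H146 and at 5.84, 5.13, 5.81 and 5.98 TPM with treatment. All treated libraries were well above the untreated ones and close to each other. The mean rose 8.57-fold (log2 fold change 2.01, SE 0.17, adjusted *p* = 6.56e-05). In H82 *LHX9* was below the filter, at 0.147, 0.149 and 0.137 TPM untreated and 0.664, 1.86 and 0.672 TPM treated. The ranges were apart, and the exact two-sided permutation test gave *p* = 0.1, the smallest possible with 3 and 3 libraries (adjusted 0.16). Its log2 difference between lines of -1.21 (adjusted *p* = 0.00309) was not past the threshold with a pseudocount of 0.1 (-0.85, adjusted *p* = 0.186) or under quantile normalization (-0.26, adjusted *p* = 0.539).

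*LHX4*, a factor of pituitary and motor neuron development, changed in opposite directions. In H82 it was at 9.78, 11.0 and 9.76 TPM untreated and 1.18, 5.24 and 3.20 TPM treated. All treated libraries were lower, and they varied widely. The mean fell 3.17-fold, with a log2 fold change of -1.53 (SE 0.37, adjusted *p* = 0.0109), which was -0.97 relative to the median and lost its call under quantile normalization (-0.72, adjusted *p* = 0.155). In H146 *LHX4* was at 0.191, 0.285 and 0.202 TPM untreated and 9.81, 11.3, 6.87 and 5.32 TPM treated. Every treated library was far above the untreated ones, and the treated mean, 8.32 TPM, was close to the mean of untreated H82, 10.2 TPM. The ratio of means was 36.8 and the log2 fold change 2.88 (SE 0.25, adjusted *p* = 8.10e-05). The difference between lines was -4.41 (95% interval -5.41 to -3.41, adjusted *p* = 1.05e-05), and across 20 alternatives it ranged from -6.50 to -3.35 with adjusted *p* of at most 0.00017.

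*LHX3*, the relative of *LHX4* with roles in the same tissues, was lower in both lines. In H82 it was at 4.16, 3.66 and 4.12 TPM untreated and 0.281, 0.181 and 0.200 TPM treated. The treated values were all near the bottom of the scale. The mean was 18.03-fold lower, with a log2 fold change of -2.03 (SE 0.18, adjusted *p* = 0.000236), -1.47 relative to the median. In H146 *LHX3* was at 2.88, 3.21 and 3.52 TPM untreated and 1.84, 2.20, 2.08 and 1.68 TPM treated. The groups did not overlap, but the change was small (1.64-fold, log2 fold change -0.51, SE 0.16, adjusted *p* = 0.0298). That call was lost in several settings, among them the use of no filter (adjusted *p* = 0.0794) and the omission of any 1 library other than treated replicate 2 (0.053 to 0.104). The fall was larger in H82 by 1.52 on the log2 scale (difference -1.52, adjusted *p* = 6.46e-05). *LHX3* and *LHX4* were thus both lower in treated H82, whereas in treated H146 *LHX4* was higher and *LHX3* slightly lower.

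**Figure D2:**
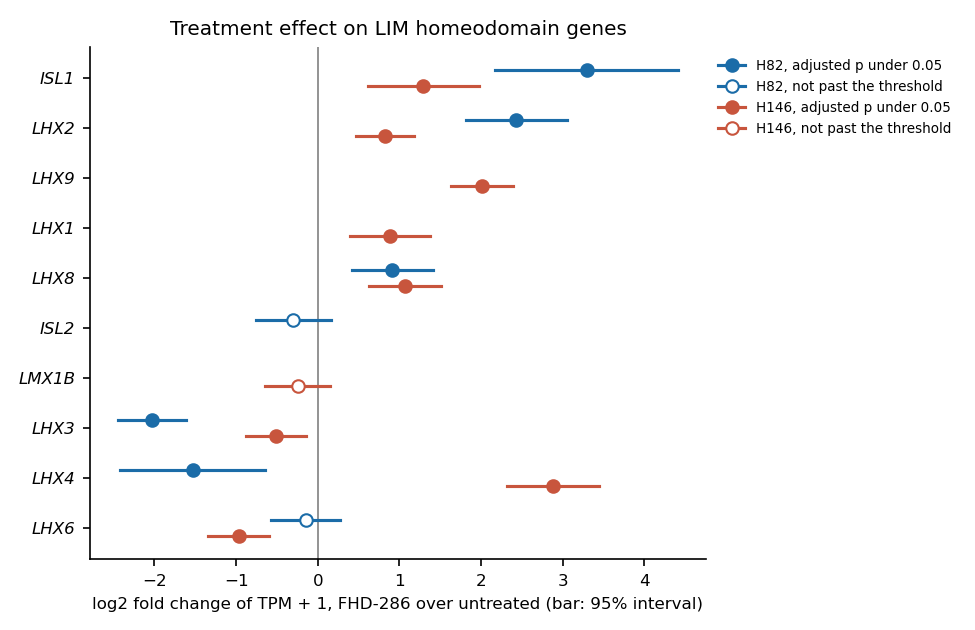
Log2 fold change of TPM + 1 with FHD-286 over no treatment (horizontal axis) and its 95% interval for LIM homeodomain genes tested in H82 (blue) or H146 (red), including *LHX6* and *LHX8*, where filled points have an adjusted *p* under 0.05. *LHX4* is at -1.53 in H82 and 2.88 in H146, whereas *ISL1* and *LHX2* are above 0 and *LHX3* is below 0 in both lines.

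*LHX1* and *LHX5*, which act in head, kidney and cerebellar development, were among the least abundant members. *LHX1* in H146 was at 0.435, 0.393 and 0.268 TPM untreated and at 2.48, 1.27, 1.16 and 1.35 TPM treated. The groups were apart, with treated replicate 1 highest. The log2 fold change was 0.88 (SE 0.21, adjusted *p* = 0.00985). In H82 *LHX1* was at 0.0393, 0 and 0 TPM untreated and 0.783, 0.171 and 0.209 TPM treated (exact permutation *p* = 0.1, adjusted 0.16). *LHX5* was at 0.772, 0.368 and 0.838 TPM in untreated and 1.30, 0.784, 0.686 and 0.705 TPM in treated H146, with overlap (exact permutation *p* = 0.514). In H82 *LHX5* did not exceed 0.0408 TPM in any library.

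*LMX1A*, a factor of midbrain dopamine neurons, was low in all libraries. In H82 it was at 0.962, 1.49 and 0.832 TPM untreated and 0.114, 0.0663 and 0 TPM treated, and in H146 at 1.55, 0.871 and 1.21 TPM untreated and 0.394, 0.331, 0.590 and 0.550 TPM treated. In both lines each treated library was below each untreated one. The same was so for 10160 of 19770 tested genes in H82 and 3385 of 19585 in H146. The exact two-sided permutation test gave *p* = 0.1 in H82 (adjusted 0.16) and 0.0286 in H146 (adjusted 0.114), in each case the smallest possible. *LMX1B*, needed for serotonin neurons, limb patterning and kidney podocytes, was at 1.82, 1.73 and 1.53 TPM in untreated and 1.09, 0.986, 1.55 and 1.49 TPM in treated H146. The ranges overlapped. The log2 fold change of -0.25 (95% interval -0.65 to 0.15, adjusted *p* = 0.273) was called under the median of ratios (-0.44, adjusted *p* = 0.0492) and quantile normalization (-0.50, adjusted *p* = 0.0429). In treated H82 *LMX1B* was at 0.389, 0 and 0.109 TPM (exact permutation *p* = 0.4).

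For the difference between lines in the treatment effect, 9 members were tested and 6 were called, *ISL1* and *LHX2* with the higher value in H82 and *ISL2*, *LHX3*, *LHX4* and *LHX9* with the lower. The background was 59.3% of all genes called in either direction, and the median difference of all genes was -0.75. Relative to that median the differences were 2.75 for *ISL1*, 2.36 for *LHX2*, -3.66 for *LHX4*, -0.77 for *LHX3*, -0.46 for *LHX9* and -0.02 for *ISL2*. *LHX1*, *LMX1A* and *LMX1B* were not called in this fit. Some settings called them, namely the median of ratios and quantile normalization for *LMX1B* (0.70 and 0.85, adjusted *p* = 0.0178 and 0.0164), a pseudocount of 0.1 for *LMX1A* (-1.73, adjusted *p* = 0.0192), and leaving out treated H82 replicate 1 for *LHX1* (-0.65, adjusted *p* = 0.0484). The comparison of untreated lines uses the same untreated libraries as this one.

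The added level of the 10 members differed in size and makeup. In H82 the sum was 79.9 ± 7.0 TPM untreated and 83.8 ± 23.5 TPM treated (SD, n = 3 and 3). *ISL2* made up 78.2% ± 3.05 of it untreated and 62.3% ± 8.0 treated, while *ISL1* went from 0.390% ± 0.194 to 15.8% ± 8.87, *LHX2* from 2.02% ± 0.589 to 15.8% ± 2.25 and *LHX4* from 12.8% ± 2.03 to 3.55% ± 1.48. In H146 the sum was 71.8 ± 1.91 TPM untreated and 159 ± 16.3 TPM treated (SD, n = 3 and 4). *ISL1* and *LHX2* together held most of it in both states, with *ISL1* at 37.7% ± 3.43 and 44.2% ± 14.1 and *LHX2* at 51.1% ± 2.98 and 42.6% ± 11.3. *LHX4* rose from 0.314% ± 0.0658 to 5.38% ± 2.18 of the sum.

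**Figure D3:**
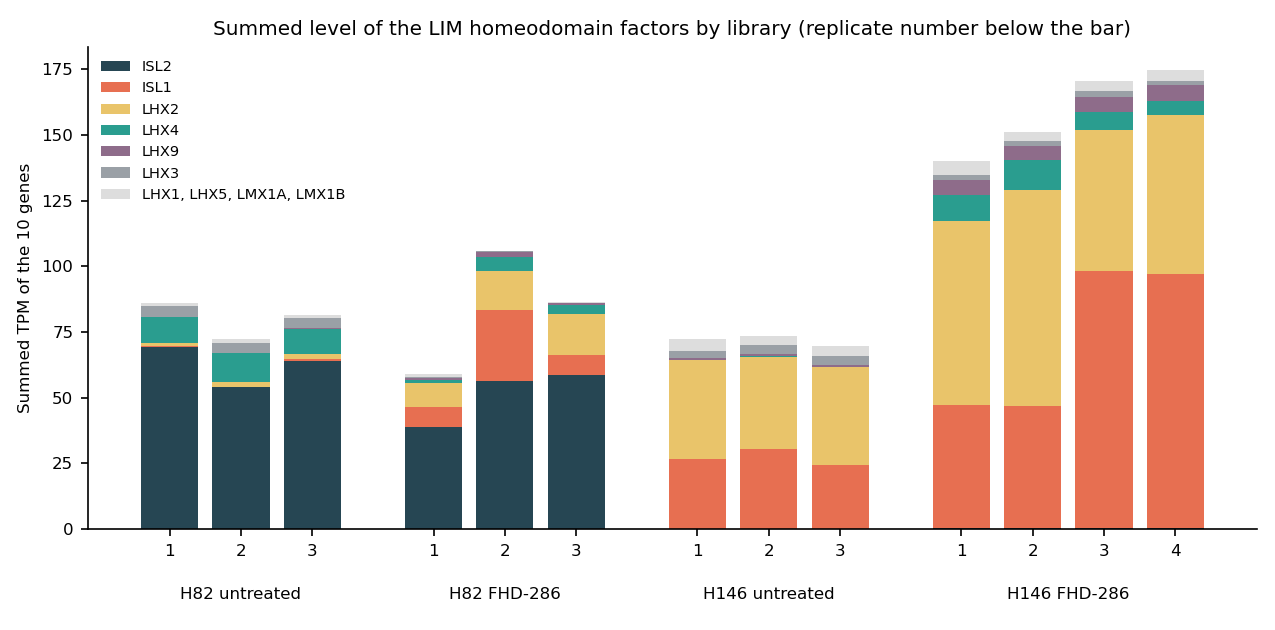
Summed TPM of the 10 LIM homeodomain factors in each library (vertical axis, linear), stacked by gene, with the replicate number under each bar. *ISL2* is the largest block in all H82 libraries, *ISL1* and *LHX2* are the largest in all H146 libraries, and treated H82 replicate 2 has the largest *ISL1* block of its line.

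Libraries of a group were not alike. Treated H82 replicate 2 stood apart in genes typical of H146. Over 57 genes at 20 TPM or more in every H146 library and below 0.1 TPM in untreated H82, its median level was 2.64% of the mean of treated H146, against 0.425% in replicate 1 and 0.189% in replicate 3. The upper quartile of these genes was 8.24%, against 1.44% and 0.692%. *ISL1* was at 38.0% of its treated H146 mean in replicate 2 and at 10.5% and 10.6% in replicates 1 and 3, *LHX2* at 22.2% against 13.5% and 23.8%, and *LHX9* at 32.7% against 11.7% and 11.8%. *LHX4* was at 63.0% against 14.2% and 38.4%. Without treatment, however, *LHX4* was higher in H82 (mean 10.2 TPM) than in H146 (0.226 TPM), and it fell in treated H82. Its percentages are thus no measure of transcripts typical of H146. Some SCLC markers were also highest in replicate 2. *INSM1* was at 34.0% there against 3.69% and 3.90%, *EPCAM* at 10.1% against 0.945% and 0.342%, and *FOXA2* at 9.14% against 0.671% and 0.276%. Of the other SCLC markers in treated H82, *SYP*, *CHGA*, *DLL3* and *ENO2* were highest in replicate 2. *UCHL1* was highest in replicate 1, and *NCAM1* and *NEUROD1* in replicate 3. Whether cells or RNA of H146 in this library had a part in the H82 values was not tested. Over all tested genes the root mean square log2 difference was 0.505 between replicates 2 and 3 and 0.790 and 0.734 between replicate 1 and these.

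In treated H146, replicates 3 and 4 were the closest pair, with a root mean square log2 difference of 0.346, followed by 0.527 for replicates 1 and 2 and 0.540 to 0.788 for the other pairs. Some members split the same way. *ISL1*, *LMX1A* and *LMX1B* were higher in replicates 3 and 4, and *LHX2*, *LHX4*, *LHX5* and *ISL2* in replicates 1 and 2. *LHX1*, *LHX3* and *LHX9* did not split like this. Whether culture, handling or sequencing set these pairs was not tested, and the labels name no batch. Fibroblast markers were low, with a sum over 5 genes of 1.70 to 2.50 TPM untreated and 7.92 to 33.3 TPM treated in H82 and of 6.52 to 8.64 and 12.6 to 19.6 TPM in H146. Their part in the treated values was not tested. Sums of immune, endothelial and squamous markers were at most 20.4, 2.62 and 7.36 TPM in any library.

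The remaining LIM homeodomain genes of the tables, *LHX6* and *LHX8*, are known from forebrain interneurons and cholinergic neurons. *LHX8* in H146 was at 2.60, 2.85 and 2.55 TPM untreated and 6.41, 8.81, 7.01 and 5.03 TPM treated, a rise of 1.07 on the log2 scale (adjusted *p* = 0.00263). In H82 it was at 0.579, 0.587 and 0.875 TPM untreated and 2.76, 1.71 and 2.08 TPM treated (log2 fold change 0.91, adjusted *p* = 0.00822). All treated libraries were above the untreated ones in both lines. In H82 *LHX8* passed the filter only through the treated group, so it had to differ. There its call was lost without any 1 untreated library (adjusted *p* from 0.053 to 0.0792), and it no longer passed the filter without any 1 treated library. *LHX6* fell with treatment of H146, with levels of 6.94 ± 1.18 and 3.04 ± 0.155 TPM (SD, n = 3 and 4, log2 fold change -0.97, adjusted *p* = 0.00202). In H82 the means were 4.98 ± 0.491 TPM untreated and 4.39 ± 0.246 TPM treated (SD, n = 3 and 3). The log2 fold change of -0.15 (adjusted *p* = 0.502) turned to 0.26 under the median of ratios and to 0.77 under quantile normalization (adjusted *p* = 0.0104).

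The LIM partner genes cover the adaptors *LDB1* and *LDB2*, the SSBP proteins that stabilise LDB1, the ubiquitin ligase *RLIM* that marks LDB proteins for degradation, and the 4 LIM-only genes. In H82, 8 of 10 were tested, 4 were lower and 3 higher, with a median log2 fold change of -0.66 beside -0.56 for all genes. Of all genes in H82, 45.5% were called lower and 13.1% higher. In H146, 9 were tested, 4 were lower and 1 was higher, with a median of -0.37 beside 0.25. Of the 4, *LMO1* passed the filter only through the untreated group and so had to differ. Of all genes in H146, 15.5% were called lower and 32.5% higher. Over the settings tried these medians lay between -0.80 and -0.18 for H82 and between -0.68 and -0.14 for H146. The H146 counts were 2 lower without any 1 untreated library, where *LMO1* no longer passed the filter and *SSBP3* lost its call, and 2 higher without treated replicate 2, where *LMO3* was called.

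*LDB1* responded differently in the lines. The H146 levels were 78.3, 89.1 and 69.1 TPM untreated and 176, 159, 205 and 180 TPM treated. The groups were far apart, and the log2 fold change was 1.18 (SE 0.13, adjusted *p* = 0.000278). In H82 *LDB1* was at 82.8, 67.5 and 76.7 TPM untreated and 38.5, 62.7 and 57.9 TPM treated, a log2 fold change of -0.53 (adjusted *p* = 0.0637) that was -0.05 under the median of ratios and -0.48 (adjusted *p* = 0.0223) under quantile normalization. The difference between lines was -1.71 (adjusted *p* = 0.000101). *LDB2* was at 0.326 TPM or less in every library.

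*LMO2*, a LIM-only protein of blood and vessel development, fell in both lines. The H146 levels were 39.1, 43.8 and 39.3 TPM untreated and 3.11, 4.14, 1.90 and 3.57 TPM treated. The mean was 12.8-fold lower (log2 fold change -3.35, SE 0.21, adjusted *p* = 1.63e-05). In H82 the levels were 8.84 ± 0.560 and 2.69 ± 0.310 TPM (SD, n = 3 and 3, log2 fold change -1.42, adjusted *p* = 0.000744). *LMO1*, a leukaemia and neuroblastoma oncogene, was lower in both lines too, with log2 fold changes of -1.82 in H82 (adjusted *p* = 0.00152) and -1.51 in H146 (adjusted *p* = 0.000282). In H146 *LMO1* was at 2.38 to 2.80 TPM untreated and 0.189 to 0.444 TPM treated. It passed the filter there only through the untreated group, so it had to differ and that call adds no support.

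*LMO4*, a LIM-only gene expressed in many epithelia and neurons, went opposite ways. In H146 it fell from 137, 132 and 138 TPM to 45.8, 49.0, 38.4 and 40.8 TPM (log2 fold change -1.62, SE 0.12, adjusted *p* = 3.51e-05). In H82 it was at 22.1, 25.0 and 25.4 TPM untreated and 37.7, 39.7 and 28.8 TPM treated (log2 fold change 0.52, adjusted *p* = 0.0309). The difference between lines was 2.14 (adjusted *p* = 3.61e-06). *LMO3* in H146 had a log2 fold change of 0.88 that was not past the threshold (adjusted *p* = 0.0585).

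Of the other partners, *RLIM* fell in H82 (-1.21, adjusted *p* = 0.00392). *SSBP3* was lower in H82 (-0.79, adjusted *p* = 0.0438, with adjusted *p* = 0.336 under the median of ratios) and in H146 (-0.66, adjusted *p* = 0.0171). The H82 call was also lost with no filter, without the trend and without any 1 untreated library (adjusted *p* from 0.0535 to 0.127). *SSBP2* (0.96, adjusted *p* = 0.0223) and *SSBP4* (0.64, adjusted *p* = 0.0228) were higher in H82. With limma, the 3 higher calls in H82 (*SSBP2*, *SSBP4* and *LMO4*) fell to 0, with the filter applied anew, without treated replicate 2 or without any 1 of the untreated libraries, where 2 or 3 genes had an unadjusted *p* under 0.05. *RLIM*, *SSBP2* and *SSBP4* in H146 were not past the threshold.

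**Figure D4:**
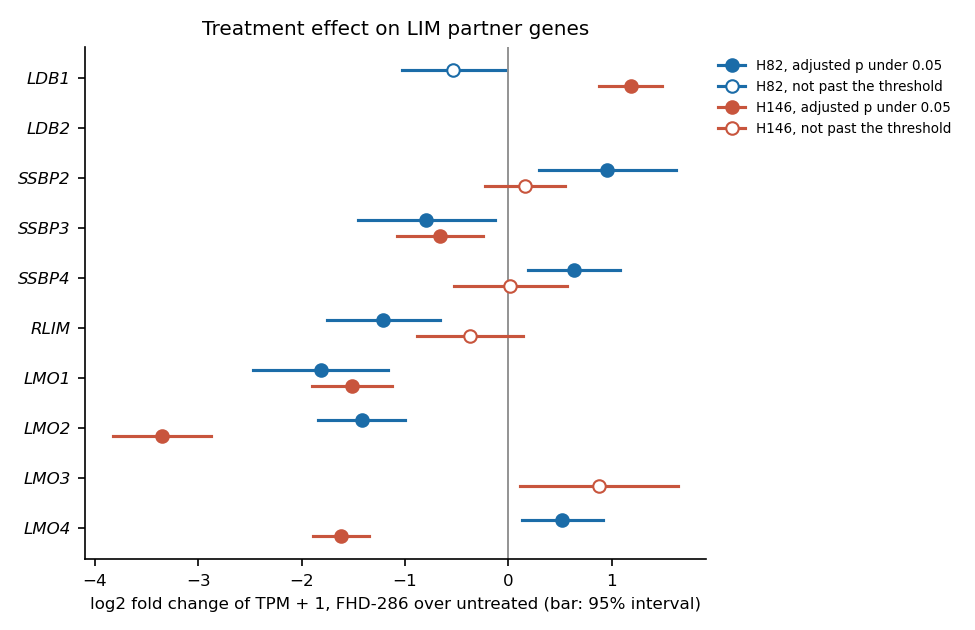
Log2 fold change of TPM + 1 with FHD-286 over no treatment (horizontal axis) and its 95% interval for LIM partner genes tested in H82 (blue) or H146 (red), where filled points have an adjusted *p* under 0.05 and genes below the filter in a line have no point. *LMO1* and *LMO2* are below 0 in both lines, while *LMO4* is at 0.52 in H82 and -1.62 in H146.

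Textbook genes of the tissues where these factors act were counted too. The shares of all genes called, for these and the lists below, were 45.5% lower and 13.1% higher in H82. In H146 they were 15.5% lower and 32.5% higher. Of 7 motor neuron and cholinergic genes, 2 were tested in H82, and *CHAT*, which makes acetylcholine, fell with treatment (15.8 ± 0.291 TPM untreated, 2.29 ± 0.943 TPM treated, SD, n = 3 and 3, log2 fold change -2.39, adjusted *p* = 0.00033). In H146, 2 were tested and limma called 0, with 0 at an unadjusted *p* under 0.05.

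Of the islet genes, *NKX2-2*, a factor of endocrine cell formation, was lower in H146 (log2 fold change -2.05, adjusted *p* = 0.000122). The levels were 5.30 to 7.57 TPM untreated and 0.458 to 0.974 TPM treated. *NKX2-2* thus passed the filter only through the untreated group, so it had to differ and the call adds no support. Of 6 eye field genes, 2 were tested in H82, where limma called 0 and 1 had an unadjusted *p* under 0.05. In H146, 3 were tested and *PAX6* was higher (0.66, adjusted *p* = 0.0272). That call was lost under the median of ratios (0.40, adjusted *p* = 0.144), under quantile normalization (0.39, adjusted *p* = 0.143), with no filter (adjusted *p* = 0.0584), and without treated replicate 1 or any 1 untreated library (0.0587 to 0.0975).

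Of 10 monoaminergic genes, 7 were tested in H82, with 1 lower (*FEV*, -1.15, adjusted *p* = 0.00881) and 3 higher, beside 45.5% lower and 13.1% higher over all genes. *FEV* passed the filter only through the untreated group and was not called under quantile normalization (-0.38, adjusted *p* = 0.257). With 1 library left out, 0 to 2 of these genes were lower in H82, with 0 without any 1 untreated library, where *FEV* no longer passed the filter, and 2 without treated replicate 1. The number higher was then 1 to 2. In H146, 6 were tested, with 4 lower and 1 higher, beside 15.5% lower and 32.5% higher over all genes. *GATA3* was called in both lines with opposite signs, 1.53 in H82 (adjusted *p* = 0.00421) and -0.51 in H146 (adjusted *p* = 0.0206). In H82 *GATA3* passed the filter only through the treated group, and in H146 its call was lost without untreated replicate 1 or 2 or treated replicate 3 (adjusted *p* from 0.0565 to 0.0913). *SLC18A2*, which loads monoamines into vesicles, fell in treated H146, being 25.8 ± 5.02 TPM untreated and 1.99 ± 0.728 TPM treated (SD, n = 3 and 4, log2 fold change -3.18, adjusted *p* = 3.97e-05), and *NR4A2*, a dopamine neuron factor, rose from 3.05 ± 1.30 to 17.5 ± 4.95 TPM (adjusted *p* = 0.000397).

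The genes whose pattern was most like that of the leading member were found by Pearson correlation of log2(TPM + 1), as a description. For *ISL2* over the 6 H82 libraries they were *ZNF574* (0.997), *IGHMBP2* (0.993) and *UBE2O* (0.992), among 12221 genes compared. For *LHX2* over the 7 H146 libraries they were *SLC6A8* (0.994), *DCAKD* (0.991) and *LURAP1L* (0.988), among 12785. The libraries share 2 treatment states, and many genes reach high values with so few points.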

How the data were processed

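RNA was extracted and sequenced by a service laboratory from untreated and FHD-286-treated H82 and H146 cells. Per the labels and the paper's methods, the authors used Trim Galore 0.4.4, mapped and counted the reads with STAR against hg38 and the GENCODE annotation, tested with DESeq2, and deposited TPM values in 1 table per line. How gene length entered the TPM and whether counting used strand are not given in the sources used here, so reads from an antisense gene cannot be told apart. Each column sums to 1000000. There is no scaling between libraries beyond that sum.

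Each line was fitted on log2(TPM + 1), a pseudocount of 1, with limma 3.58.1 in R 4.3.3 (mean-variance trend, two-sided), limited to genes reaching 1 TPM in 3 or more libraries, with Benjamini-Hochberg adjustment and a threshold of 0.05. The difference between lines and the untreated lines were tested in 1 fit of all 13 libraries. Members below the filter were compared with exact permutation tests. Alternatives were a pseudocount of 0.1, no filter, a mean TPM above 2, the median of ratios, quantile normalization, a replicate block, no trend, unadjusted *p* and each library left out. The log2 ratio of mean TPM, the lists under the scalings and each library left out with an unchanged gene set were added after seeing the data. The members, lists and rule for named genes were chosen with earlier results of these data known. Named were all members, *LHX6*, *LHX8*, the partner genes, listed genes called in both lines or with the largest called rise or fall of their list, and the 3 genes most like the leading member with a mean of at least 5 TPM. *INSM1*, *EPCAM*, *UCHL1*, *SYP*, *CHGA*, *NCAM1*, *DLL3* and *ENO2* were named after their values were seen. The code was tested on simulated data. Python 3.11.15 with pandas 2.3.3, numpy 2.4.6, scipy 1.17.1 and matplotlib 3.10.9 was used. Promoter sequences and coordinates came from RefSeq (GRCh38.p14) and GENCODE release 44. Noncoding antisense and divergent genes of the members, and amino acid sequences, were not analysed here. Results for 2 listed genes, and the list counts that rest on them, are not reported here.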

Additional observations from a re-analysis of the deposited data

Results flagged for a closer look

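In treated H146, replicate 1 lay far above the other 3 libraries for *LHX1* (2.48 TPM, with a gap to the next of 0.856 of the group's range) and for *LHX5* (1.30 TPM, 0.842 of the range). Chance gives about 1 such library in 20 groups, and 2 were found among 10 members. Both genes were at low levels.

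The treatment effect differed between the lines by limma's interaction test for 6 members, as the H82 minus the H146 log2 fold change. The difference was 2.002 for *ISL1*, 1.605 for *LHX2*, -0.7702 for *ISL2*, -1.516 for *LHX3*, -4.412 for *LHX4* and -1.211 for *LHX9*. For *LHX4* the changes had opposite signs, and for *ISL1*, *LHX2* and *LHX3* the sign was the same and the change was larger in H82.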

How the results depend on the processing

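The differences between lines in the effect on *ISL1*, *LHX2*, *LHX3* and *LHX4*, and the rises of *ISL1* and *LHX2* in both lines, stayed past the threshold wherever they were tested in the alternatives run. For *ISL1* in H82 the filtered fits add no support, since it passed the filter only through the treated group and so had to differ. Under quantile normalization 1 member was called lower in H82 (*LHX4* lost) and 2 in H146, as under the median of ratios (2). With the replicate block, limma called 0 members lower in H146, with 0 at an unadjusted *p* under 0.05, so that *LHX3* lost its call there (-0.47, adjusted *p* = 0.161), as did *GATA3* (-0.55, adjusted *p* = 0.0955). The labels do not say whether the numbers pair the libraries. Deviations from the group mean in same-numbered libraries correlated between -0.038 and 0.027 in H82 and between -0.111 and 0.011 in H146. No shared deviation was seen, but with so few libraries per group these values cannot exclude pairing. Over all genes in H82, quantile normalization gave 5547 lower and 5067 higher, and the median of ratios 4793 higher. In H146 the median of ratios gave 4917 lower and 4167 higher. An unadjusted *p* gave 2 partner genes higher in H146. With each library left out, H82 had 1 to 2 members lower and 1 to 2 higher, since *ISL1* or *LHX3* then failed the filter, 4291 to 9957 genes lower, 1676 to 3503 higher, and 0 to 3 partners higher. H146 had 0 to 1 members lower, 1812 to 3729 genes lower, and 2 to 5 partners lower and 1 to 2 higher. The H82 counts over all genes fell most without an untreated library. Small values below the threshold turned sign. The *ISL2* change in H82 was 0.19 under the median of ratios and 0.20 as a log2 ratio of means with it. The difference between lines was 0.12 for *LHX1* with a pseudocount of 0.1 and 0.12 under quantile normalization, which gave 0.34 for *LMX1A*. Between the untreated lines *LHX3* was at -0.29 under quantile normalization and *LMX1A* between -0.19 and 0.012 with each library left out (0.012 without untreated H82 replicate 3). Where no filter or fewer libraries are not the cause by construction, the cause was not tested. TPM keep no depth, so no limit of detection can be given for members below 1 TPM.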
